A study of Mus musculus with 12 samples.

Results

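The sarcomeric myosin heavy chain genes are the part of the C2C12 transcriptome described here. All 8 genes whose symbol is Myh1, Myh2, Myh3, Myh4, Myh6, Myh7, Myh7b or Myh8 were taken. They are among 16288 genes listed in at least 1 library. The choice was by symbol, left out the sarcomeric genes Myh13 and Myh15, and was made with earlier results of these data known. RNA came from C2C12, an immortalized mouse myoblast line that carries no engineered allele in the labels. The 12 libraries fall into 6 groups of 2, called A and B and labelled as biological duplicates, with nothing to say whether they came from separate cultures. The p-values below therefore measure the spread between these libraries, which may be technical. Proliferating cells in growth medium with 10% fetal bovine serum are called GM. Cells kept for 24 h or 48 h in differentiation medium with 2% horse serum and insulin are called DM 24h and DM 48h. At each stage cells received DMSO, the solvent, or PFI-3 at 50 uM, a small molecule that binds the bromodomains of BRM, BRG1 and PB1, subunits of the SWI/SNF chromatin remodelling complexes. All groups had 12 h of DMSO or PFI-3 before harvest or before the change of medium, and it was renewed every 24 h in differentiation medium.

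Myosin heavy chain is the motor of the thick filament of striated muscle. Its head binds actin and splits ATP, and its tail packs into the filament. Each fibre type and each stage of muscle development uses its own heavy chain genes. Myh3 encodes the embryonic chain and Myh8 the perinatal (neonatal) chain, the chains of forming fibres. Myh2, Myh1 and Myh4 encode the adult fast chains IIA, IIX and IIB. Myh7 encodes the slow chain, which is also the beta chain of the heart, and Myh6 encodes the alpha chain of the heart. Myh7b is an older branch of the family and hosts the microRNA gene of miR-499. In cultured myoblasts these genes are nearly silent until the cells leave the cell cycle and differentiate, which makes them late markers of differentiation.

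The fast and developmental genes lie head to tail on the plus strand of chromosome 11 (GENCODE M21 on GRCm38, the assembly that the submitters' processing notes call mm10). In order along the strand they are Myh3 (NCBI Gene 17883, chr11:67078300-67102291), Myh2 (17882, chr11:67171027-67197517), Myh1 (17879, chr11:67200052-67224575), Myh4 (17884, chr11:67238029-67260446) and Myh8 (17885, chr11:67277124-67308634). Together they span 230.3 kb. Myh6 (17888, chr14:54941921-54966927) and Myh7 (140781, chr14:54970684-54994626) are neighbours on the minus strand of chromosome 14, with 3.76 kb between them. Myh7b (668940, chr2:155611212-155634307) stands alone on the plus strand of chromosome 2. Each transcript chosen to represent a gene has 39 to 42 exons and codes for 1935 to 1942 amino acids.

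The genes are near copies of one another over parts of their coding sequence, and this bears on how reads can be counted. The longest stretch that Myh1 and Myh2 share without a mismatch has 268 bases in exons 23 and 24 of both transcripts. The longest that Myh6 and Myh7 share has 245 bases, in exons 30 and 31 of Myh6 and exons 32 and 33 of Myh7. Both stretches code for the tail of the chain. They are shown because a read that falls inside them fits both genes equally well:
Myh1 and Myh2: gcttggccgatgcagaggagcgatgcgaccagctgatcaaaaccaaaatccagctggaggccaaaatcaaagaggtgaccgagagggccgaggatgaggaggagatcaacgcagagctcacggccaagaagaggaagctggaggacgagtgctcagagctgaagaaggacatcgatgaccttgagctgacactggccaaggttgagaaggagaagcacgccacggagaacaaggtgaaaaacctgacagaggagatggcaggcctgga
Myh6 and Myh7: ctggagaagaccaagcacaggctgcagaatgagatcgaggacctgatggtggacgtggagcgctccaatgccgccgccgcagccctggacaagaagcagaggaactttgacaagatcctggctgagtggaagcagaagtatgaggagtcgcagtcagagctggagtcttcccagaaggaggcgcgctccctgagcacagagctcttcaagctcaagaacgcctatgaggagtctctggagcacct

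The share of each transcript that could not be told from another heavy chain was measured with windows of 50 bases, since the read length is not given in the sources used here. Of the Myh1 windows 26.7% occurred in another of the 8 transcripts, and so did 26.7% of the Myh2 windows. The share was 22.6% for both Myh6 and Myh7, 19.9% for Myh8 and 18.6% for Myh4. It was 3.66% for Myh3, and no Myh7b window was shared. With windows of 100 bases the shares fell to 9.69% for Myh1, 9.17% for Myh2, 11.4% for Myh6 and Myh7, 5.17% for Myh8, 3.85% for Myh4 and 0 for Myh3 and Myh7b.

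**Figure D1:**
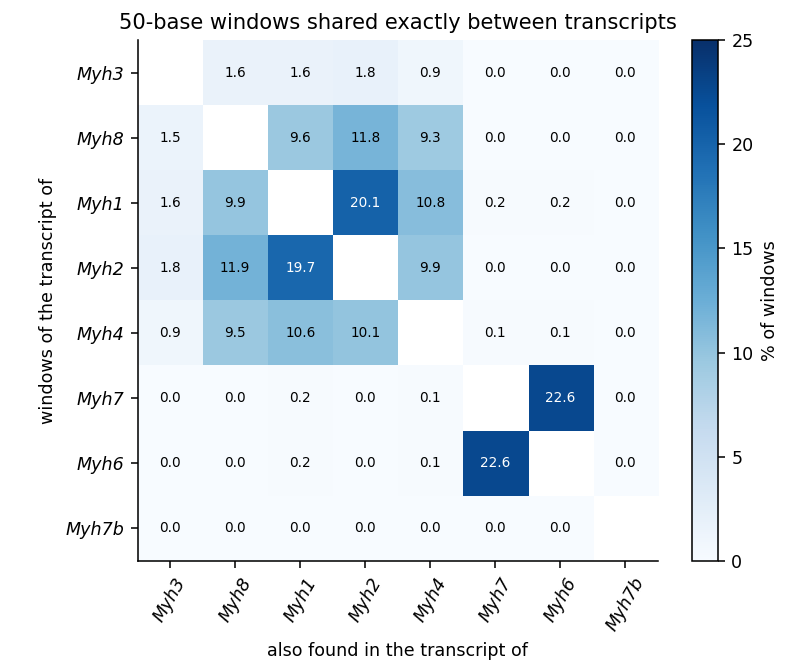
Exact sharing of 50-base windows between the 8 heavy chain transcripts. Each cell gives the percentage of the windows of the row's transcript that also occur in the column's transcript; the darkest cells are Myh6 with Myh7 and Myh1 with Myh2, and the Myh7b row is at 0.

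Some of the deposited expected counts are fractions. Dividing a read among matching genes gives such values, and the source of each fraction was not tested. Myh2 had a fractional count in all 8 libraries that listed it, Myh1 in 8 of 10, Myh7 in 7 of 10, Myh6 in 7 of 8, Myh8 in 6 of 10 and Myh4 in 4 of 6. Myh3 had one in 2 of 12 libraries and Myh7b in 0 of 12. Fractions were thus rare in the genes with few or no shared windows, Myh3 and Myh7b. The values of Myh1, Myh2, Myh4 and Myh8, and those of Myh6 and Myh7, may depend in part on how shared reads were divided, and they are given with that limit.

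Promoter windows from RefSeq (GRCm38.p6), which run from 250 bases before to 50 bases after a gene's start, were found for all 8 genes. They are shown for Myh3 and for the cluster genes Myh1, Myh8 and Myh4 because their PFI-3 estimates at DM 48h run from the lowest of the family (Myh8) to the highest (Myh4). The search used, on both strands, the E-box CANNTG bound by MyoD and myogenin, the MCAT element CATTCC bound by TEAD factors, the MEF2 consensus, the CArG box of SRF and the TATA box TATAAA. Capitals mark every match:
Myh3, chr11:67078050-67078349, plus strand: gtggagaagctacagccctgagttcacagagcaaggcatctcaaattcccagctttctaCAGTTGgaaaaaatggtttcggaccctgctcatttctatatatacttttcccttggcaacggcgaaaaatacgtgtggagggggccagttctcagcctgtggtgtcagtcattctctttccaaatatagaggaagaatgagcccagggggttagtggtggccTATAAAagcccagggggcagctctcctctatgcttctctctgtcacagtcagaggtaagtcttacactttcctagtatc
Myh1, chr11:67199852-67200151, plus strand: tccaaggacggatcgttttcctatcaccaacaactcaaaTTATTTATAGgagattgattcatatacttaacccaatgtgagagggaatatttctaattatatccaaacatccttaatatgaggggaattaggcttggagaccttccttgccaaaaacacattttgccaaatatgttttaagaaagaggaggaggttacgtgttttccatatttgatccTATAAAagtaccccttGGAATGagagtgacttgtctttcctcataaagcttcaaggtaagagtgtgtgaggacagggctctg
Myh8, chr11:67276874-67277173, plus strand: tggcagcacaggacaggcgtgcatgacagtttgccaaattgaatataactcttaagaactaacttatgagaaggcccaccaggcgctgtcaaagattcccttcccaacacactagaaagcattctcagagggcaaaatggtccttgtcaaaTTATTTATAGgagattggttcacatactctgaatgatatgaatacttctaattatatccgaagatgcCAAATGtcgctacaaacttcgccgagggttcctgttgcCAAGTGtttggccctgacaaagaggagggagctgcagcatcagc
Myh4, chr11:67237562-67237861, plus strand: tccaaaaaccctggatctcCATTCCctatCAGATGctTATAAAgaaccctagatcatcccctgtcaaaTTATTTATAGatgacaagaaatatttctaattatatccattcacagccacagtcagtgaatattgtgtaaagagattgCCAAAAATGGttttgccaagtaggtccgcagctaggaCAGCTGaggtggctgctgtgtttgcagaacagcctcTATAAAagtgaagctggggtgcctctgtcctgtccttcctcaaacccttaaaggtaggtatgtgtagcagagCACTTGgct

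The Myh3 window holds 1 E-box, 191 bases before the start, and a TATA box 29 bases before it. The windows of Myh1, Myh8 and Myh4 each hold a MEF2 match, TTATTTATAG, which lies 211, 99 and 182 bases before the start. This match contains TATAAA on the other strand, so the 2 motifs overlap there. A MEF2 match occurs in 3.19% of the 32851 RefSeq windows, an E-box in 72.3%, a MCAT element in 14.7%, TATAAA in 13.6% and a CArG box in 1.63%. Around the MEF2 match Myh1 and Myh8 share 22 bases, tcaaattatttataggagattg. No E-box was found in the Myh1 window, while the Myh8 window holds 2 and the Myh4 window 3. Only the Myh4 window, among the 8 genes, holds a CArG box. Its RefSeq window ends before the GENCODE start of Myh4, so the annotations place that start differently. A match is a string of letters and not a measured binding site.

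Depth was even: expected counts summed to 12576374 to 13658352 per library. The 2 libraries of a GM group differed more than those of a DM group: the SD over genes of the log2 ratio of A to B was 0.312 and 0.281 in GM and 0.131 to 0.140 in DM. Skeletal muscle markers (Myod1, Myog, Des, Acta1, Ckm and Tnnc2) were all detected in every group, and their summed level rose from 393 to 624 CPM (counts scaled to the same library total) in GM to 11844 and 12016 in DMSO cells at DM 48h. Of the 7 heart markers, Myl7, Tbx20, Ryr2, Nppa and Nppb were at 0 in both libraries of DMSO cells at DM 48h. In each other group 1 to 3 of the 7 were at 0 in both libraries. Nkx2-5 was detected in every library, at 0.409 to 1.55 CPM. Myh6 and Myh7 are thus read here in cells where every heart marker but Gata4 stayed at 1.55 CPM or less. The heart list summed to 22.0 to 33.4 CPM over all libraries, of which Gata4 held 20.9 to 32.0.

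In proliferating cells the heavy chain genes were almost absent. Myh3 had 6 and 8 counts in libraries A and B with DMSO and 11 and 15 with PFI-3, so all PFI-3 values lay above all DMSO values. Myh7b had 4 and 1 counts with DMSO and 1 and 2 with PFI-3. Myh1, Myh7 and Myh8 had at most 2 counts in any GM library, and Myh2, Myh4 and Myh6 were listed in none, where a count of 0 allows up to 3. No fold is given for these 6 genes in GM, which were at or under 3 counts over each group. With edgeR's quasi-likelihood test on all 12545 genes that passed the low-count filter, 0 of the 8 genes differed between PFI-3 and DMSO at an adjusted p under 0.05, against 11.6% of all genes, and none had an unadjusted p under 0.05. The 6 genes at or under 3 counts, and Myh7b, passed the filter only through the DM groups and had too few counts in GM to be called. The share says nothing of them, and the comparison rests on Myh3 alone. The log2 fold change of Myh3 was 0.80 (SE 0.31, edgeR adjusted p = 0.240). With counts this low, a change of Myh3 of this size was not resolved at this depth, although limma on log2(FPKM + 0.1) called it (0.52 on that scale, limma adjusted p = 0.016).

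Induction of differentiation switched the whole family on. Myh3, the embryonic chain gene, reached the highest level of the 8 at both DM stages: in DMSO cells it had 5193 and 5262 counts after 24 h and 62215 and 62317 after 48 h. As FPKM, a fragment count scaled by transcript length and library total, which corrects for transcript length and so allows genes to be compared, it stood at 69.6 and 68.5 and then at 818 and 823. The ratio of Myh3 counts at DM 24h to GM was 769, with a 95% counting interval of 458 to 1407, and Myh3 rose a further 12.4-fold to DM 48h (log2 3.63, SE 0.08, edgeR adjusted p = 1.69e-11). Replicates of a group differed far less than groups did at each step.

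All 8 genes were called higher at DM 24h than in GM in DMSO cells (edgeR, adjusted p under 0.05), where 30.6% of all genes were called higher. Every gene but Myh3 had at most 4 counts in a GM library and passed the low-count filter only through the DM groups. The filter thus favoured a rise for these genes, and the count of 8 is a description. Myh1, the IIX chain gene, had 338 and 406 counts at DM 24h, and Myh7, the slow chain gene, had 119 and 131. The perinatal Myh8 had 74.2 and 88.4 counts and Myh7b had 39 and 37. At the low end were Myh2 (10.0 and 15.02 counts), Myh6 (9.57 and 17.6) and Myh4, with 2 counts in each library. Against a floor of 3 counts over the GM group, these rises come to 8.58-fold for Myh2 and 9.27-fold for Myh6. These values take the DM 24h counts as exact and are no strict bounds. For Myh4 the same value is 1.37-fold, and its call was lost when any 1 library of the GM DMSO or DM 24h DMSO groups was left out.

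From DM 24h to DM 48h all 8 genes rose again in DMSO cells, against 24.2% of all genes called higher. Myh4 passed the filter only through DM 48h, so the filter favoured its rise. Myh1, Myh3 and Myh7b rose 12.6-fold, 12.4-fold and 11.4-fold, Myh6 14.9-fold, Myh7 16.5-fold and Myh2 17.9-fold. Myh8 rose 64.8-fold (log2 6.02, SE 0.12, edgeR adjusted p = 1.35e-11), to 4939 and 5158 counts. Myh4, the IIB chain gene, rose 99.9-fold (log2 6.64, SE 0.30, edgeR adjusted p = 1.53e-07), from 2 and 2 counts to 195 and 212. Its fold rests on 4 counts at DM 24h, and the SE does not carry the full counting error of so few counts.

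**Figure D2:**
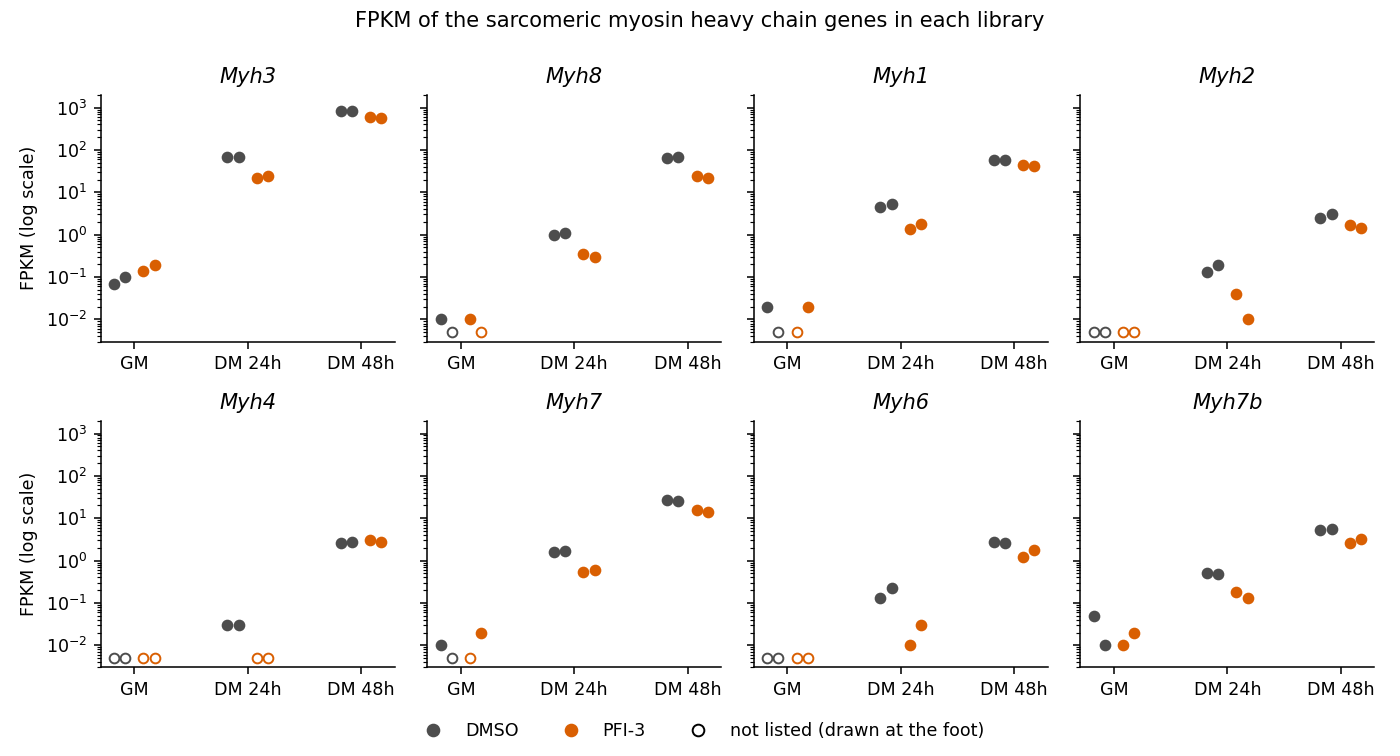
FPKM (log axis) of each gene in every library, by stage (x axis), with DMSO in grey and PFI-3 in orange; each point is 1 library and an open point at the foot is a library that does not list the gene. Every gene climbs from GM to DM 48h, PFI-3 points lie below DMSO points at DM 24h in all panels and at DM 48h in all but Myh4.

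The order of the genes by FPKM changed between the stages. At DM 24h with DMSO, Myh3 was followed by Myh1 (4.48 and 5.22 FPKM), Myh7 (1.58 and 1.69), Myh8 (0.97 and 1.12) and Myh7b (0.51 and 0.47). Myh6 (0.13 and 0.23) and Myh2 (0.13 and 0.19) overlapped, and Myh4 came last at 0.03 in both. At DM 48h Myh8 had moved ahead of Myh1 and Myh7, to the place after Myh3, with 63.2 and 66.4 FPKM against 58.0 and 58.9 for Myh1. Myh7 followed with 26.4 and 25.3 and Myh7b with 5.26 and 5.52. Myh2 (2.50 and 3.13), Myh4 (2.55 and 2.78) and Myh6 (2.73 and 2.55) overlapped at the foot of the order and were not separated by their spread.

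PFI-3 lowered the family at DM 24h. Myh3 had 5193 and 5262 counts with DMSO and 1653 and 1790 with PFI-3, or 69.6 and 68.5 against 21.9 and 23.8 FPKM. Its log2 fold change was -1.64 (SE 0.07, edgeR adjusted p = 6.88e-08), a level 3.12-fold lower. Of the 8 genes 7 were called lower and 0 higher, where 11.4% of all genes were called lower, and in all 8 both PFI-3 libraries lay below both DMSO libraries in CPM, which 35.2% of all genes did. The median log2 fold change was -1.73 over the 8 genes and -0.00098 over all genes tested. In bulk RNA, fewer differentiated cells and less of a transcript in each of them cannot be told apart.

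The 5 genes with more than 30 counts in each DMSO library at DM 24h were all called lower. Myh8 had 74.2 and 88.4 counts with DMSO and 27 and 22 with PFI-3 (log2 fold change -1.76, SE 0.20, edgeR adjusted p = 8.17e-05). For Myh1 the counts were 338 and 406 against 103 and 138 (-1.66, SE 0.16, edgeR adjusted p = 1.91e-05). Their groups did not overlap, and the fold changes of Myh3, Myh8, Myh1, Myh7 and Myh7b lay between -1.76 and -1.59. Myh7 had 119 and 131 counts with DMSO and 40 and 44.95 with PFI-3 (-1.59, SE 0.18, edgeR adjusted p = 7.49e-05). Myh7b, with no window shared with another of the 8 transcripts, had 39 and 37 against 14 and 10 (-1.69, SE 0.29, edgeR adjusted p = 0.00169).

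The scarce members at DM 24h were lower too, with wide errors. Myh2, the IIA chain gene, had 10.0 and 15.02 counts with DMSO and 2.93 and 1.04 with PFI-3 (log2 fold change -2.61, SE 0.60, edgeR adjusted p = 0.0118). Myh6 had 9.57 and 17.6 against 1 and 2.05 (-3.16, SE 0.68, edgeR adjusted p = 0.00832). As ratios of summed counts these are 0.156 for Myh2, with a 95% counting interval of 0.0394 to 0.451, and 0.108 for Myh6, with 0.0210 to 0.351. Both calls depended on single libraries: without library B of the DMSO group the edgeR adjusted p was 0.081 for Myh2 and 0.066 for Myh6, without PFI-3 library B it was 0.090 for Myh2, and without PFI-3 library A it was 0.073 for Myh6. Myh4 had 2 and 2 counts with DMSO and was listed in neither PFI-3 library. Against the floor of 3 counts its level was 1.37-fold lower, but that value takes the DMSO counts as exact and is no strict bound. The difference was not called (edgeR adjusted p = 0.0649).

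By DM 48h the family had risen with PFI-3 as well. In PFI-3 cells all 8 genes were called higher at DM 48h than at DM 24h, against 13.1% of all genes. Here too the filter favoured a rise of Myh4. Myh3 rose 25.8-fold (log2 4.69, SE 0.08, edgeR adjusted p = 6.07e-12) to 45134 and 41461 counts. Myh8 rose 72.9-fold, Myh1 27.1-fold, Myh7 26.4-fold and Myh7b 18.8-fold. Myh4 went from 0 to 228 and 211 counts, which is 150-fold against the floor of 3 counts. PFI-3 cells at DM 48h were also above DMSO cells at DM 24h in all 8 genes (18% of all genes called higher), Myh3 by 8.27-fold and Myh8 by 21.5-fold. From GM to DM 24h in PFI-3 cells, 6 of the 8 genes were called higher, against 32.1% of all genes. The limit of the filter given for DMSO cells holds here as well. The exceptions were Myh4, at 0 in all 4 libraries, and Myh6, which stood at 1 and 2.05 counts at DM 24h. The call of Myh2 there rests on 2.93 and 1.04 counts and was lost with the replicate block (edgeR adjusted p = 0.0603).

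At DM 48h PFI-3 cells still had less of 7 of the 8 transcripts than DMSO cells. The estimates of the 7 ran from -1.59 for Myh8 to -0.56 for Myh1, and differences between genes were not tested. The background was 14% of all genes called lower, and 7 of the 8 genes had both PFI-3 libraries below both DMSO libraries, as did 35.9% of all genes. The median log2 fold change was -0.91 over the 8 genes and 0.0014 over all genes tested.

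Myh8 had the lowest estimate of the 8 genes at DM 48h. Its counts were 4939 and 5158 with DMSO and 1820 and 1675 with PFI-3, or 63.2 and 66.4 against 23.8 and 21.9 FPKM. This is a log2 fold change of -1.59 (SE 0.09, edgeR adjusted p = 4.39e-07), a level 3.01-fold lower. Myh3 had 62215 and 62317 against 45134 and 41461 counts, or 818 and 823 against 605 and 557 FPKM (-0.58, SE 0.07, edgeR adjusted p = 6.66e-05). The adult IIX gene Myh1 had 4459 and 4507 against 3250 and 3108 counts (-0.56, SE 0.11, edgeR adjusted p = 0.00300). In each case the groups did not overlap.

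Myh4 was the member without a lower level at DM 48h. Its counts were 195 and 212 with DMSO and 228 and 211 with PFI-3, and the groups overlapped. The log2 fold change was 0.05 (SE 0.15, edgeR adjusted p = 0.851), and its sign turned to -0.02 and -0.01 when library A of the DMSO or of the PFI-3 group was left out. Myh4 shares 18.6% of its 50-base windows with other members, and its part in how reads were divided was not tested.

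The sum of Myh1, Myh2, Myh4 and Myh8, most of it from Myh1 and Myh8, was lower with PFI-3 at DM 48h (-0.98, SE 0.10, edgeR adjusted p = 2.83e-05). It does not depend on how reads were divided among these 4 genes, and it says nothing of Myh4 itself.

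The slow and cardiac genes and Myh7b lay between these at DM 48h. Myh7 had 2027 and 1934 counts with DMSO and 1160 and 1033 with PFI-3 (log2 fold change -0.91, SE 0.10, edgeR adjusted p = 3.37e-05). For Myh7b the counts were 410 and 428 against 204 and 241 (-0.97, SE 0.15, edgeR adjusted p = 3.93e-04). Both had groups that did not overlap. Myh2 had 193 and 240 against 128 and 111 counts (-0.92, SE 0.20, edgeR adjusted p = 0.00662) and Myh6 had 209 and 194 against 91.0 and 132 (-0.91, SE 0.22, edgeR adjusted p = 0.0119). The call of Myh6 was lost without library A of either group or without library B of the DMSO group (edgeR adjusted p = 0.065 to 0.124), and that of Myh2 without library B of either group (0.075 and 0.096). The sum of Myh6 and Myh7, which does not depend on how their shared reads were divided, was lower by 0.91 in log2 (SE 0.10, edgeR adjusted p = 2.83e-05).

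**Figure D3:**
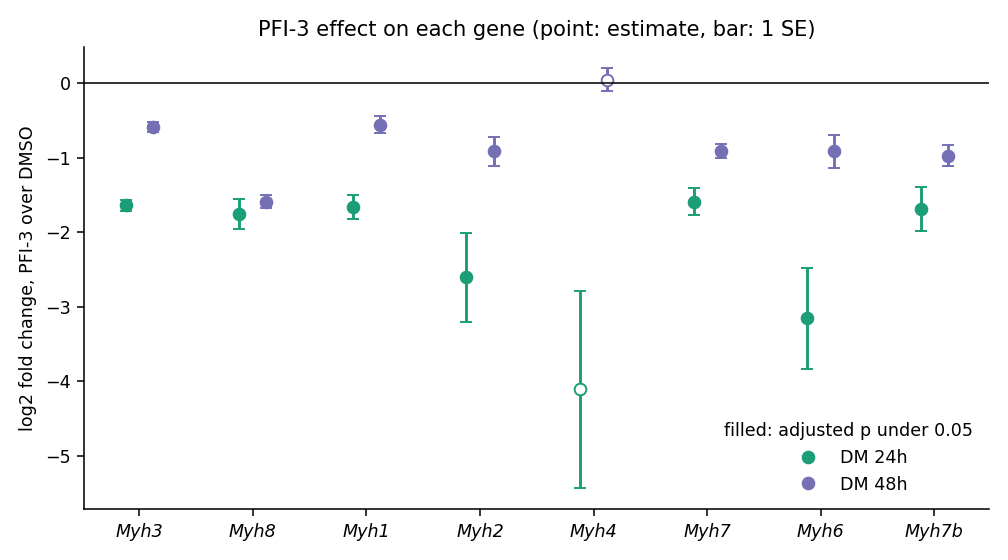
Log2 fold change of PFI-3 over DMSO at DM 24h (green) and DM 48h (purple) for each gene. Bars are 1 SE, derived from the F statistic of the test, and can understate counting error for genes with few counts. Open points did not reach an adjusted p under 0.05. At DM 48h Myh8 lies at -1.59 beside its DM 24h value of -1.76, while Myh3 and Myh1 have moved to -0.58 and -0.56 and Myh4 to 0.05, and the Myh4 point at DM 24h rests on 4 counts against 0.

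Whether the effect of PFI-3 changed between DM 24h and DM 48h was tested directly as an interaction. For Myh3 the effect at DM 48h minus that at DM 24h was 1.06 in log2 (SE 0.10, edgeR adjusted p = 5.15e-05), and for Myh1 it was 1.11 (SE 0.19, edgeR adjusted p = 0.00297). These 2 of the 8 genes were called higher, meaning a smaller loss at DM 48h, against 7.12% of all genes. Myh7 came to 0.68 (SE 0.21, edgeR adjusted p = 0.0536), and its adjusted p fell to 0.0253 to 0.0278 when any 1 GM library was left out, although no GM library enters that difference. For Myh8 the difference was 0.17 (SE 0.22, edgeR adjusted p = 0.681), and for Myh7b 0.72 (SE 0.33, edgeR adjusted p = 0.195). Myh2, Myh6 and Myh4 had larger estimates with larger errors (1.69, 2.24 and 4.16, SE 0.66, 0.75 and 1.34), and none was called. The summed groups were called: 0.73 for Myh1, Myh2, Myh4 and Myh8 (SE 0.17, edgeR adjusted p = 0.0167) and 0.78 for Myh6 and Myh7 (SE 0.20, edgeR adjusted p = 0.0253). On the log2(FPKM + 1) scale the Myh8 difference had the opposite sign (-0.84, limma adjusted p = 0.00138), a scale on which a pseudocount of 1 shrinks changes at levels near 1 FPKM, such as those of Myh8 at DM 24h.

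The makeup of the heavy chain pool was then described as each gene's percentage of the summed FPKM of the 8 genes. Myh3 held most of it in every DM library. At DM 24h its share was 89.2% ± 1.02 (SD, n = 2) with DMSO and 89.6% ± 0.477 with PFI-3. After 48 h it was 83.5% ± 0.170 with DMSO and 86.8% ± 0.240 with PFI-3. The share of Myh8 moved the other way, from 1.35% ± 0.137 and 1.26% ± 0.246 at DM 24h to 6.59% ± 0.181 (DMSO) and 3.41% ± 0.00517 (PFI-3) at DM 48h. Set against Myh3 in the same library, Myh8 was at 7.73% and 8.06% of the Myh3 FPKM in DMSO cells at DM 48h and at 3.93% and 3.94% in PFI-3 cells. The groups did not overlap, and at DM 24h the same figure was 1.39% and 1.63% with DMSO and 1.60% and 1.22% with PFI-3, which overlapped.

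The other shares at DM 48h were closer together. Myh1 held 5.94% ± 0.0262 (SD, n = 2) with DMSO and 6.31% ± 0.162 with PFI-3, and at DM 24h its libraries overlapped. Myh7 held 2.63% ± 0.0956 and 2.17% ± 0.0531, and Myh4 held 0.271% ± 0.0146 and 0.436% ± 0.00109. In PFI-3 cells at DM 48h the order by FPKM was therefore Myh3, Myh1 (43.1 and 41.3), Myh8 (23.8 and 21.9) and Myh7 (15.4 and 13.7), with Myh1 ahead of Myh8. Myh4 (3.03 and 2.81) and Myh7b (2.67 and 3.16) overlapped there, as did Myh2 (1.69 and 1.46) and Myh6 (1.21 and 1.76). An exact two-sided permutation test of the PFI-3 effect on a share, averaged over both DM stages with labels permuted within a stage, has 36 arrangements and cannot give a p under 0.0556. It gave 0.111 for Myh3 and Myh8, 0.0556 for Myh2 and 0.111 to 0.556 for the others, and at least 0.222 after Benjamini-Hochberg adjustment over the 8 genes. At DM 48h the shares of 7 of the 8 genes did not overlap between DMSO and PFI-3, and those of Myh6 did. No background rate is given for shares, but separation is common with n = 2. In CPM, 35.9% of all genes had both PFI-3 libraries below both DMSO libraries at DM 48h, counting that direction only. The 8 shares of a library are parts of the same sum and do not vary independently, so the count of 7 is no test. The shares are given as a description, and no other test was run on them.

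**Figure D4:**
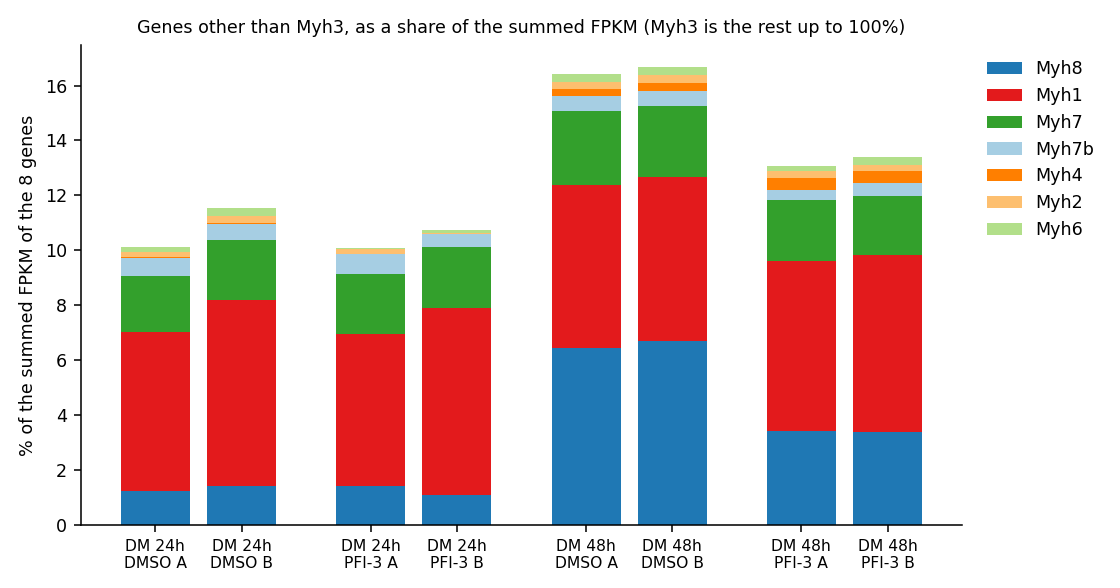
Shares of the summed FPKM of the 8 genes held by the 7 genes other than Myh3, in each DM library (bars start at 0; Myh3 is the remainder up to 100%). The Myh8 segment (blue) is near 6.6% in DMSO libraries and 3.4% in PFI-3 libraries at DM 48h, while the Myh1 segment (red) lies between 5.53% and 6.82% in all 8 libraries.

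As a part of the whole transcriptome, the 8 genes summed to 0.0459% and 0.0460% of the expected counts with DMSO at DM 24h and to 0.0145% and 0.0158% with PFI-3. At DM 48h they summed to 0.580% and 0.587% against 0.412% and 0.381%. The summed counts gave a log2 fold change of -1.65 (SE 0.09, edgeR adjusted p = 2.49e-07) at DM 24h and -0.64 (SE 0.08, edgeR adjusted p = 1.43e-04) at DM 48h.

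The genes whose products sit beside the heavy chains in the thick filament followed a like course. Of 13 such genes (myosin light chains, myosin-binding proteins, M-band proteins and titin) 11 could be tested, and 9 were called lower at DM 24h (11.4% of all genes), 11 were at DM 48h (14%), and none was called higher. Their median log2 fold change was -1.60 at the earlier stage and -0.81 at the later one. Among them, Myl2 passed the low-count filter only through DMSO cells at DM 48h (2.28 and 1.39 CPM, against 0.157 and 0.234 with PFI-3). The filter thus favoured its call at DM 48h. Mylpf, the fast regulatory light chain gene, changed by -1.42 and -0.68, and Myl1, the fast essential light chain gene, by -1.56 and -0.81. Mybph, for myosin-binding protein H, changed by -1.86 and -0.89, and Myom2, for an M-band protein that ties thick filaments together, by -1.78 and -0.80. Myl4, the light chain gene of embryonic muscle and atria, was at -2.33 and -1.70 (edgeR adjusted p = 5.60e-08 at DM 48h). Titin (Ttn) changed by -1.41 and -0.50.

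Proteins that fold, place or remove myosin form a second group. Of 8 genes, 5 were called lower at DM 24h (11.4% of all genes), while 3 were called lower (14%) and 1 higher (13.4%) at DM 48h. Hsp90ab1, the most abundant of them and a general chaperone, was at -0.02 and -0.09 and was not called. Unc45b, the muscle chaperone of myosin, changed by -1.56 and -0.70, and Smyd1, a methyltransferase needed for thick filament assembly, by -1.63 and -0.59, all called by edgeR. Unc45a, the general form of the chaperone, was at 0.30 and 0.24 and was not called. Hsp90aa1, another general chaperone, was at -0.23 at DM 24h (edgeR adjusted p = 0.0565) and was called higher at DM 48h (0.25, SE 0.08, edgeR adjusted p = 0.0383). Trim55, a muscle ubiquitin ligase, was called lower at DM 24h (-0.69) and was at -0.32 at DM 48h (edgeR adjusted p = 0.101).

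**Figure D5:**
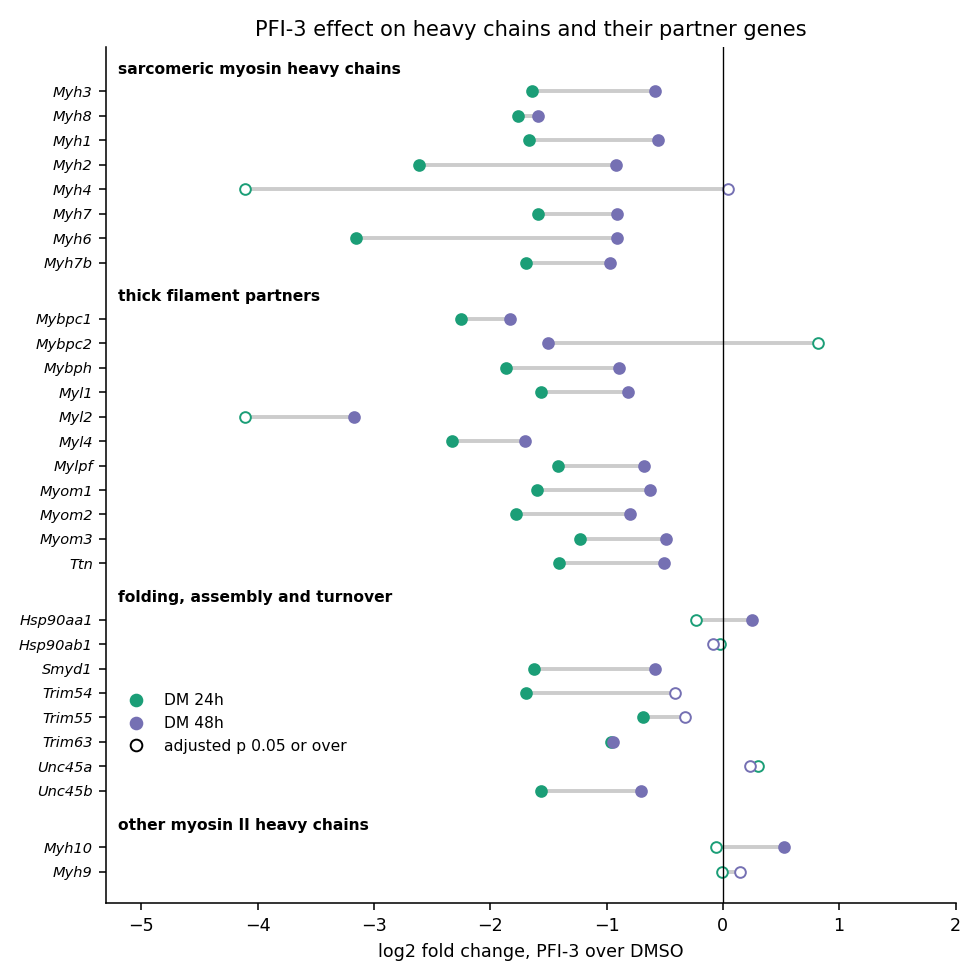
Log2 fold change of PFI-3 over DMSO at DM 24h (green) and DM 48h (purple) for the 8 heavy chain genes and for partner genes by group; a grey line joins the values of a gene and open points did not reach an adjusted p under 0.05. Most thick filament genes move from near -1.6 to near -0.8 between the stages, Myh8 and Myl4 are at -1.59 and -1.70 at DM 48h, and the nonmuscle genes Myh9 and Myh10 lie near or above 0.

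The heavy chains of nonmuscle myosin belong to the same gene family. Of 6 other class II genes only Myh9 and Myh10 passed the filter, and Myh11 (smooth muscle), Myh13, Myh14 and Myh15 did not. In GM Myh9 was called lower with PFI-3 (-0.33, edgeR adjusted p = 0.0471) and Myh10 was at -0.15 (edgeR adjusted p = 0.178). Neither was called at DM 24h (-0.0046 and -0.06). At DM 48h Myh10 was called higher (0.53, SE 0.07, edgeR adjusted p = 1.73e-04) and Myh9 was at 0.15 (edgeR adjusted p = 0.296).

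Among 18 genes for regulators of heavy chain expression, 9 were called lower and 1 higher at DM 24h, and 10 lower and 2 higher at DM 48h, where 11.4% and 14% of all genes were called lower and 12.2% and 13.4% higher. Myog, for myogenin, changed by -1.05 at DM 24h and -0.62 at DM 48h, both called lower by edgeR, while its relative Myod1 was at -0.36 and -0.23 and was not called. Mef2a was called lower and then higher (-0.48 and 0.19). Tead1, of the family that binds MCAT elements, was at -0.21 at DM 24h and was called lower at DM 48h (-0.38), and so was Nfix, a factor of the switch from embryonic to fetal muscle genes (-0.11 and -0.51). Outside the 6 most abundant regulators, Mef2c was singled out after its values were seen, because its family binds the MEF2 consensus searched for above, and it changed by -2.09 and -2.45. No relation between these genes and the heavy chains was tested.

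Other cell markers moved beside the heavy chains. With PFI-3, the skeletal muscle markers summed to 1569 and 1552 CPM against 2579 and 2568 at DM 24h and to 8516 and 8417 against 12016 and 11844 at DM 48h, and 4 of 6 were called lower at each stage. The smooth muscle list (Acta2, Tagln, Cnn1, Myh11, Smtn and Lmod1), which early myoblasts also express in part, summed to 1440 and 1487 against 2640 and 2665 CPM at DM 24h and to 3584 and 3632 against 5241 and 5128 at DM 48h. Of its 5 tested genes 0 were called at DM 24h and 1, Lmod1, was called lower at DM 48h. That is near the 14% of all genes called lower and says little of the list. Myh11, which defines smooth muscle, did not pass the filter. The part of these shifts in the heavy chain results was not tested. Summed over 4 genes each, endothelial markers were at 1.80 CPM or less, osteoblast markers at 0.784 or less, macrophage markers at 9.55 or less and adipocyte markers at 0.0818 or less in every library.

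Finally, the genes whose profile was most like that of each heavy chain were listed by Pearson correlation of log2(CPM + 1) over the 12 libraries, which share stage and treatment, leaving out genes that averaged under 10 CPM. Myh3 was most like Mylpf (r = 0.9996), Atp2a1, the calcium pump of fast fibres, and Mybph, for myosin-binding protein H. Myh1 was most like Myom2 (0.9989) and Myh7 most like Myom1 (0.9988), both M-band genes. Myh8 was most like Galnt6 (0.9981) and Actn2 (0.9974), and Myh7b was most like Myh8 itself (0.9977). Myh2 and Myh6 both had Hspb7 first (0.9968 and 0.9969) and Ankrd2 second. Myh4 had the loosest match, Hspb8 at 0.989. With 3 stages that differ by orders of magnitude, such coefficients are high for any gene that rises steeply with differentiation, and they are a description of these libraries.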

How the data were processed

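RNA sequencing libraries of 12 C2C12 samples were prepared, sequenced and processed by the authors' sequencing provider, per the labels. The submitters' processing notes name HISAT, StringTie, Cufflinks, Bowtie, RSEM and DESeq2 and the build mm10, with no order or role, so which of them made each column is not given in the sources used here. The deposited tables, 1 per library, hold an expected count and an FPKM value per gene, per the file headers. A gene missing from a table was taken as 0: in the 6963 cases of a gene listed in 1 library of a group only, its median count there was 1. The kit's use of strand and the read length are not given in the sources used here, so reads of overlapping or antisense transcripts cannot be told apart. Of 5 transcripts looked for from the loci of these genes (among them Mhrt and Mir499), 0 were listed in any library.

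Expected counts were rounded and tested with edgeR 4.0.16 (R 4.3.3) by its quasi-likelihood test, with TMM scaling and 1 model of 6 groups over all 12 libraries. The filter of edgeR kept 12545 of 16288 genes, the 8 heavy chain genes included. Benjamini-Hochberg adjustment ran over all genes tested, and an adjusted p under 0.05 was the threshold for a call. Each SE is the absolute log2 fold change divided by the square root of the F statistic of the test, and at few counts it can be smaller than counting error alone. CPM values use the TMM-scaled totals. Ratios carry 95% counting intervals, which cover counting error only. Where a group had 0 counts, 3 counts over it were taken as the floor, and the counts of the other group were taken as exact. Alternatives were other size factors, DESeq2 1.42.0, other filters, limma 3.58.1 on log2(FPKM + 1) and log2(FPKM + 0.1), a fit of only the groups compared, a replicate block, close paralogues summed and leaving out each library in turn. The tests were checked on simulated counts. Shared windows were computed on 1 GENCODE M21 transcript per gene, and promoter windows are those of RefSeq. Tables were made with Python 3.11.15, pandas 2.3.3 and scipy 1.17.1 and figures with matplotlib 3.10.9.

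The heavy chain genes and the lists of partner, regulator and marker genes were chosen with earlier results of these data known. From each partner or regulator list, values are given for at most the 6 genes with the highest mean CPM (1 regulator among them is not reported here), and for each heavy chain the 3 most similar genes were taken.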

Additional observations from a re-analysis of the deposited data

Results flagged for a closer look

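The effect of PFI-3 differed between DM 24h and DM 48h for 2 of the 8 genes by the interaction test of edgeR. For Myh3 the log2 difference was 1.06 (adjusted p = 5.15e-05), with a loss in both PFI-3 libraries at each stage. For Myh1 it was 1.11 (adjusted p = 0.00297), again with both PFI-3 libraries below both DMSO libraries at each stage.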

How the results depend on the processing

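Counts of called heavy chain genes moved by more than 1.5 times in 4 refits with another setting and by less in 77, and in none of 108 refits that left out 1 library. With limma on log2(FPKM + 0.1), 1 gene was called in GM in place of 0, and with limma on log2(FPKM + 1), 5 were called for DM 24h against GM in DMSO cells in place of 8. In the fit of only the groups compared, 4 interactions were called in place of 2 (Myh6 and Myh7 were added), and 4 with the replicate block as well. The summed genes stayed lower under all settings tried, with log2 fold changes of -1.72 to -1.57 at DM 24h and -0.70 to -0.56 at DM 48h. The letters were not shown to pair the libraries. For each stage, the log2 ratios of A to B in DMSO cells were correlated over 10656 genes with those in PFI-3 cells. The coefficient was 0.509 for proliferating cells. It was only 0.0517 for the DM 48h groups, and the DM 24h groups gave 0.0361. With the replicate block in the fit of all libraries, 1 call was lost, Myh2 for DM 24h against GM in PFI-3 cells (4.08, edgeR adjusted p = 0.0603).

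Some signs turned, and the cause was not tested. Myh7b in GM ranged from -1.46 to 0.50 as single libraries were left out, the latter without library A of the GM DMSO group. Myh4 at DM 48h ranged from -0.0159 to 0.11 as single libraries were left out (-0.0159 and -0.0111 without library A of the DMSO or the PFI-3 group). The sum of Myh1, Myh2, Myh4 and Myh8, mostly Myh1 and Myh8, was at -0.98 and is no value of Myh4 alone. For the interaction, limma on log2(FPKM + 1) gave -0.39 for Myh2, -0.35 for Myh6, -0.0317 for Myh7, -0.34 for Myh7b and -0.84 for Myh8 (limma adjusted p = 0.00138), and limma on log2(FPKM + 0.1) gave -0.0543 for Myh8. The PFI-3 difference in the Myh1 share, 0.140 percentage points, ranged from -0.182 (without PFI-3 library B at DM 24h) to 0.462 as single libraries were left out, with -0.0983 when DMSO library A at DM 24h was. With limma on log2(FPKM + 1), Myh2 and Myh6 were not called at DM 24h (limma adjusted p = 0.183 and 0.165). With limma on log2(FPKM + 0.1), Myh1 was not called at DM 48h (-0.47, limma adjusted p = 0.0699). The Myh7 interaction was called with RLE size factors (edgeR adjusted p = 0.0475) and with DESeq2 (DESeq2 adjusted p = 0.0488).

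The background moved with the fit more than the heavy chains did. Genes called lower with PFI-3 numbered 1433 at DM 24h, with a range of 659 to 2783 over the settings, and 1756 at DM 48h, with a range of 997 to 3077. In GM they numbered 771, with a range of 20 to 1563. On the log2(FPKM + 1) scale the split was 1863 higher and 1143 lower at DM 24h, where the count test gave 1533 and 1433, and 2554 and 1356 at DM 48h, where it gave 1682 and 1756. The median log2 fold change of all genes, in the order GM, DM 24h, DM 48h, was 0.0627, 0.0363 and 0.0711 on that scale and 0.0814, 0.0455 and 0.0854 on log2(FPKM + 0.1), against -0.0102, -0.00098 and 0.0014 in the count test. Depth limits what can be read of Myh2, Myh4 and Myh6 at DM 24h and of every gene but Myh3 in GM.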
